A study of Mus musculus with 8 samples.

Results

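9 genes that mark or build dendritic cells were followed in colon RNA from mice with colitis: Flt3, Zbtb46, Batf3, Irf8, Irf4, Xcr1, Cd209a, Cd83 and Fscn1. They were chosen by name, as the rows of the deposited table that carry these 9 symbols, and all 9 of them were found among its 18806 genes. Colitis had been induced in every mouse with DSS (dextran sulfate sodium), which damages the lining of the colon. One group had DSS alone and the other had DSS together with Alistipes putredinis (AP), an anaerobic gut bacterium, and each was represented by 4 mice taken at random from a larger group. Because the controls carry DSS too, and no mouse without it was in the series, healthy colon offers no baseline here. Strain, genotype, age, the DSS regimen, and the dose and timing of the bacterium are not given in the sources used here. Whole colon tissue was the source, so all cells of the gut wall contributed RNA and the dendritic cells in it were not isolated. In such bulk samples, fewer cells of a type and less RNA per cell cannot be told apart.

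Dendritic cells take up antigen in the gut wall, carry it to lymph nodes and show it to T cells. Their precursors grow in response to FLT3 ligand through the receptor FLT3, and ZBTB46 separates the conventional lineage from macrophages. Conventional dendritic cells come in a pair of branches. The first, cDC1, needs IRF8 and BATF3, displays the chemokine receptor XCR1 and presents antigen to CD8 T cells. The second, cDC2, leans on IRF4, and part of it displays the lectin CD209a. On maturation either branch raises CD83, which keeps MHC class II at the surface, and the actin-bundling protein fascin (Fscn1), which supports the long dendrites. Several of these genes are also used elsewhere: IRF4, IRF8 and CD83 by B cells, IRF8 by macrophages, ZBTB46 by endothelium, and fascin by endothelium and neurons.

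Epithelial RNA was plentiful, with the 9 epithelial markers summing to between 10700 and 14400 CPM (counts scaled to a common library size) in every library. That the tissue is colon rests on the labels. Each library held between 16089081 and 17104290 estimated counts, and 3 counts, taken as the floor of detection, stood for 0.167 to 0.186 CPM. The floor covers counting error only, whereas the SEs and 95% intervals of fold changes come from the spread between mice. The defining dendritic cell genes were present but low, as the levels below show, and Siglech, a marker of plasmacytoid dendritic cells, was too low to test (0.695 ± 0.319 CPM in DSS and 0.213 ± 0.0791 in DSS+AP, mean ± SD, n = 4 each).

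The windows before listed start sites of the 4 genes that fell and of Irf8, which did not, are shown as stretches that dendritic cell factors could read. Each is the 250 bases before the RefSeq start site in mouse build GRCm38.p6, 5′ to 3′ on the gene's own strand, in lower case with motif matches in capitals. Flt3 lies at chr5:147400490-147400739 (minus strand), Zbtb46 at chr2:181424389-181424638 (minus), Cd209a at chr8:3748985-3749234 (minus), Fscn1 at chr5:142960105-142960354 (plus) and Irf8 at chr8:120736108-120736357 (plus, the first of its 2 listed start sites). The Zbtb46 start site listed lies inside the span of the gene rather than at its outer end, 181493262. Its window may therefore be intron rather than promoter.
Flt3: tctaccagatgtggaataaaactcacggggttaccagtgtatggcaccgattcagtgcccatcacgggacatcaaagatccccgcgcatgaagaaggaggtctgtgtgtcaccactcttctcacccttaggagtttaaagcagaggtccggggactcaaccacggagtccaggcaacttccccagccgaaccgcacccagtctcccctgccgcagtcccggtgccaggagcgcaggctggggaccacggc
Zbtb46: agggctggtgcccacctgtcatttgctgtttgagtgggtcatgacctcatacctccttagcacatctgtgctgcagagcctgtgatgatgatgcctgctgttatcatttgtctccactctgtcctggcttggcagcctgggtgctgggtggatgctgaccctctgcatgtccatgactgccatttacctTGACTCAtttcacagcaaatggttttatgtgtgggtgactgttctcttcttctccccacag
Cd209a: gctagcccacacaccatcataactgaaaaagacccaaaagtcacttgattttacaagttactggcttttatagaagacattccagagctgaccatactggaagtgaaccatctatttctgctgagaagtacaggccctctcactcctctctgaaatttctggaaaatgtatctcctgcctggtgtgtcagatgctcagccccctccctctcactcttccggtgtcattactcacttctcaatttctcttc
Fscn1: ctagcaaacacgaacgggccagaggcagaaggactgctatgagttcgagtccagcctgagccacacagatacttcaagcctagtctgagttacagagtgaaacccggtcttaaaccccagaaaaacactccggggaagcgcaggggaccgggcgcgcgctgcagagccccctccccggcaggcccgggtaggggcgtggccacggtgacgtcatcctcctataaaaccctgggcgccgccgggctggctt
Irf8: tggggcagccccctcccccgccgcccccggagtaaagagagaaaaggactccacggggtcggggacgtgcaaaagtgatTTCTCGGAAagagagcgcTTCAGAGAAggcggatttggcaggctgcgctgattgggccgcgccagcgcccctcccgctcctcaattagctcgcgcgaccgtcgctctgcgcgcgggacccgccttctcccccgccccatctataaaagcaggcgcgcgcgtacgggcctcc
5 motifs were searched on both strands: GAAA and GAAA with 2 free bases between (ISRE, the interferon-stimulated response element), GGAA and GAAA with 2 free bases between (EICE, the composite element read by IRF4 or IRF8 with PU.1), TGANTCA (AP-1, which BATF3 with a JUN partner can read), GGGA and TTTCC with 1 free base between (kappaB) and TTCNNNGAA (GAS, the STAT site of interferon gamma signalling), the last added after the sequences were seen. Zbtb46 held 1 AP-1 match, TGACTCA, at bases 61 to 55 before its internal start site, so this may not be a promoter match. Irf8 held 2 GAS matches, TTCTCGGAA at 171 to 163 and TTCAGAGAA at 153 to 145. None of these motifs had a match in the windows of Flt3, Cd209a or Fscn1. Of the other genes, Batf3 held a GAS match, TTCCACGAA, at 239 to 231, while Irf4, Xcr1 and the second start site of Irf8 held none. Of all 32851 RefSeq mouse promoter windows of this length, 6.75% held an AP-1 match and 7.02% a GAS match, against 2.98% for ISRE, 2.30% for EICE and 0.356% for kappaB. EICE and ISRE overlap in their letters, and a match is a description of sequence only. Cd83 is named without a promoter.

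Scaled to transcript length, the 9 genes spanned a 155-fold range of level in DSS colon. Irf8 stood far above the others, at 35.1 ± 2.49 CPM per kb of its longest coding transcript in DSS and 40.2 ± 2.12 in DSS+AP. Fscn1 came next in DSS at 8.07 ± 3.28 CPM per kb, followed by Cd83 at 4.28 ± 1.34. Cd209a at 2.22 ± 0.781, Flt3 at 1.92 ± 0.805, Irf4 at 1.86 ± 0.804, Batf3 at 1.26 ± 0.569 and Zbtb46 at 1.06 ± 0.239 formed a close set whose neighbours did not differ beyond their SD. Xcr1, the cDC1 receptor, was lowest at 0.226 ± 0.124 CPM per kb. In DSS+AP the order changed below Irf8. Cd83 at 2.81 ± 0.753 and Fscn1 at 2.42 ± 0.559 CPM per kb were then within each other's SD, with Irf4 at 1.45 ± 0.257 after them. Batf3 at 0.702 ± 0.215, Flt3 at 0.638 ± 0.113, Cd209a at 0.630 ± 0.242 and Zbtb46 at 0.532 ± 0.0372 again lay together, and Xcr1 was lowest at 0.255 ± 0.0883.

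The comparison of DSS+AP with DSS asked how dendritic cell transcripts stood in colitic colon when the bacterium was given. 4 of the 9 genes fell, namely Flt3, Zbtb46, Cd209a and Fscn1, and 0 rose, at an adjusted p under 0.05 (edgeR's quasi-likelihood test with Benjamini-Hochberg adjustment over all 14578 genes tested). Batf3, Irf8, Irf4, Cd83 and Xcr1 did not pass. Of all genes tested, 20.4% were lower by this rule, 8.84% higher and 29.2% either, so the 44.4% of the dendritic cell genes that were lower stands against 20.4%. Their median log2 fold change was -0.85, beside 0.02 over all genes. The same 4 genes were the ones whose groups did not overlap, a pattern seen in 30.3% of all genes in either direction and in 19.6% with DSS+AP below. The count of all genes called higher, 1288, was 525 when DSS 4 was left out, 565 for DSS+AP 3, 762 for DSS+AP 4, 847 for DSS 3 and 2101 for DSS 2, while the dendritic cell genes stayed at 4 lower and 0 higher each time.

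**Figure D1:**
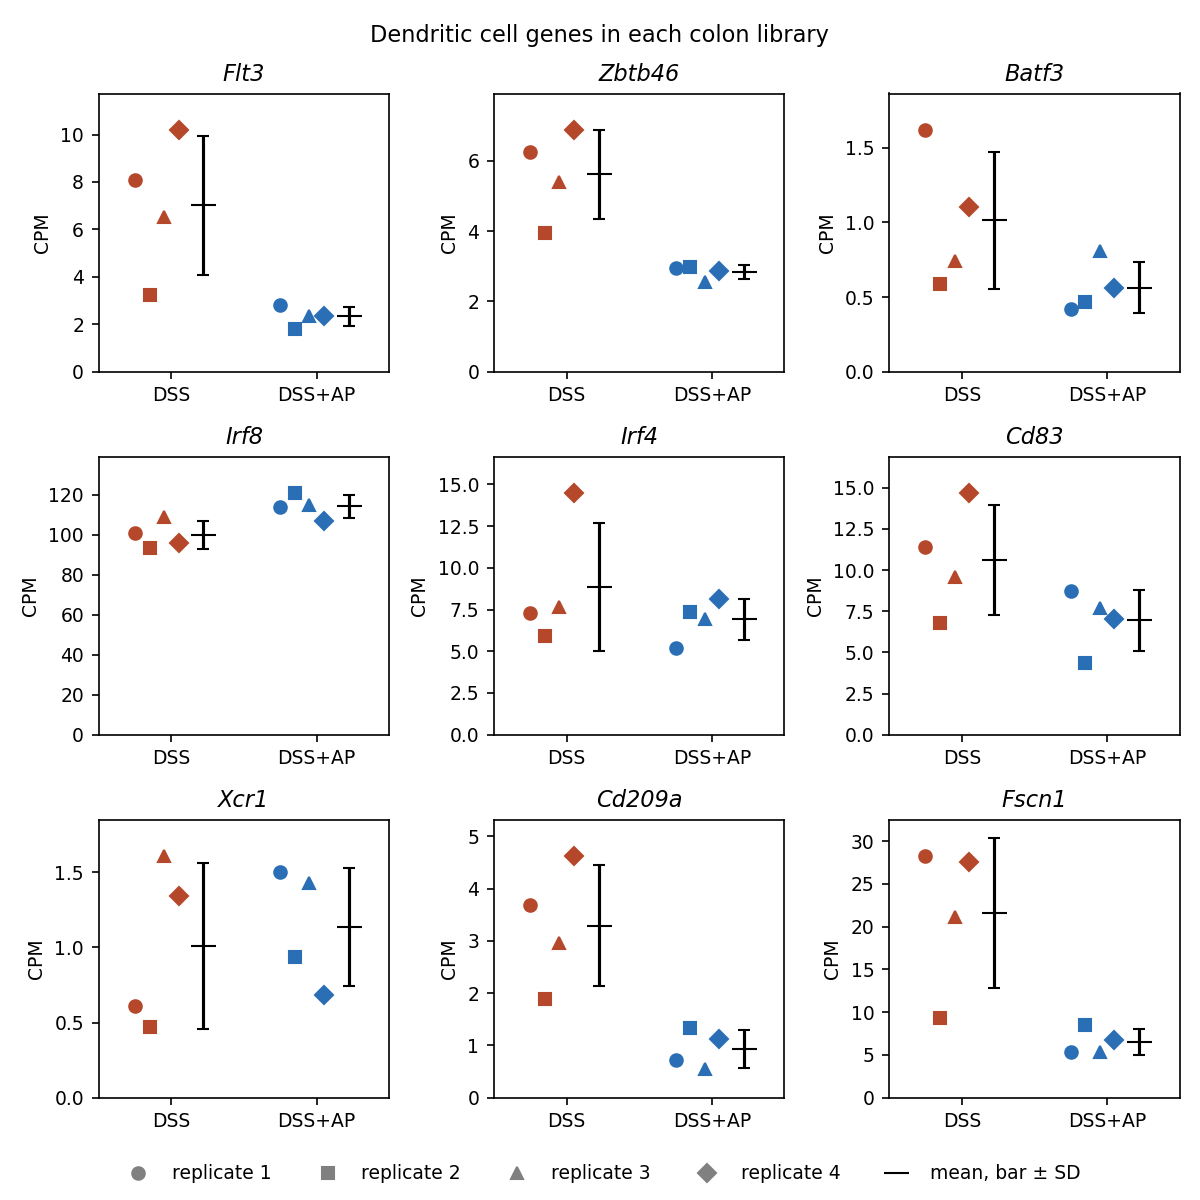
Level of each of the 9 genes in every library, in CPM on a linear axis from 0, with DSS and DSS+AP side by side, 1 symbol a mouse and, beside them, the group mean ± SD. Flt3, Zbtb46, Cd209a and Fscn1 show groups that do not overlap, and DSS 2 is the lowest DSS library for all 9 genes.

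Flt3 encodes the receptor tyrosine kinase that expands dendritic cell precursors (gene 14255; chromosome 5, 147330741 to 147400489, GRCm38.p6). Its level was 8.08, 3.24, 6.51 and 10.2 CPM in DSS 1 to 4, and 2.82, 1.81, 2.36 and 2.35 CPM in DSS+AP 1 to 4. All DSS+AP libraries lay below the lowest DSS library, DSS 2. The mean fell from 7.01 ± 2.94 to 2.33 ± 0.413 CPM (SD, n = 4 each), which is -1.58 ± 0.33 on the log2 scale (fitted change ± SE; edgeR adjusted p = 0.00947). Its ligand gene Flt3l, which many cells make, averaged 4.78 ± 1.01 CPM with DSS alone against 4.14 ± 0.584 with the bacterium, and its log2 change of -0.20 ± 0.19 did not pass (edgeR adjusted p = 0.448). Flt3l was named after its values were seen, as were Clec9a, Itgae, Xcl1, Ciita, H2-Aa, Ccl19, Cd209f, Siglech, Bst2, Cd3d and Cd3g.

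Zbtb46 encodes the zinc finger factor of the conventional lineage (gene 72147; chromosome 2, 181371009 to 181493262). Its level was 6.24, 3.94, 5.39 and 6.88 CPM in DSS 1 to 4, and 2.94, 2.98, 2.54 and 2.85 CPM in DSS+AP 1 to 4. The DSS+AP libraries were close together and all below DSS 2, the lowest of the others. The mean fell from 5.61 ± 1.27 to 2.83 ± 0.197 CPM, a log2 fold change of -0.99 ± 0.20 (edgeR adjusted p = 0.00806). In the same libraries all 10 endothelial markers were lower in DSS+AP, with summed levels of 192 to 333 CPM against 110 to 142. Their part in the fall of Zbtb46 was not tested.

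Batf3 encodes the leucine zipper partner of IRF8 in cDC1 (gene 381319; chromosome 1, 191098414 to 191108943). It had few reads, 29, 10, 12 and 18 estimated counts in DSS 1 to 4 and 7, 8, 13 and 9 in DSS+AP 1 to 4. As CPM these were 1.62, 0.589, 0.744 and 1.1 against 0.420, 0.467, 0.806 and 0.558 CPM. The groups overlapped, since DSS+AP 3 stood above DSS 2 and DSS 3. The log2 fold change of -0.85 ± 0.38 had a 95% interval from -1.71 to 0.01 and did not pass (edgeR adjusted p = 0.121). Without DSS 1, the highest library, it was -0.50.

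Irf8 encodes the interferon regulatory factor that fixes cDC1 identity and also serves macrophages and B cells (gene 15900; chromosome 8, 120736358 to 120756694). Its level was 101, 93.2, 109 and 95.8 CPM in DSS 1 to 4, and 114, 121, 115 and 107 CPM in DSS+AP 1 to 4. 3 of the 4 DSS+AP libraries lay above the highest DSS library and only DSS+AP 4 lay within the DSS range. Means were 99.9 ± 7.08 and 114 ± 6.04 CPM. The log2 fold change of 0.20 ± 0.07 (95% interval 0.03 to 0.36) did not pass (edgeR adjusted p = 0.0763), though it did with no low-count filter (0.27, edgeR adjusted p = 0.0325) and with DESeq2 (0.22, DESeq2 adjusted p = 0.0353). Irf8 was thus not among the genes that fell, in libraries where 10 of 12 macrophage markers and 11 of 12 B cell markers were lower. Of the 9 epithelial markers in these libraries 0 were lower and 3 higher, at a median log2 fold change of 0.24. Which cells made the Irf8 RNA was not tested.

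Irf4 encodes the factor used by cDC2 and, at high level, by plasma cells (gene 16364; chromosome 13, 30749233 to 30766981). Its level was 7.30, 5.94, 7.68 and 14.5 CPM in DSS 1 to 4, and 5.22, 7.36, 6.94 and 8.12 CPM in DSS+AP 1 to 4. Apart from DSS 4 the groups covered much the same range. The log2 fold change of -0.36 ± 0.28 (95% interval -0.99 to 0.28) did not pass (edgeR adjusted p = 0.356). It was -0.01 when DSS 4 was left out and -0.18 when DSS+AP 1 was.

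Xcr1 encodes the receptor by which cDC1 sense the chemokine XCL1 (gene 23832; chromosome 9, 123852315 to 123862029). It had 11, 8, 26 and 22 estimated counts in DSS 1 to 4 and 25, 16, 23 and 11 in DSS+AP 1 to 4. These were 0.613, 0.471, 1.61 and 1.34 CPM against 1.5, 0.934, 1.43 and 0.681 CPM. High and low libraries occurred in both groups. The log2 fold change of 0.18 ± 0.43 had a 95% interval from -0.80 to 1.16, so that neither a fall nor a rise of 1.5-fold was outside it (edgeR adjusted p = 0.777). Its ligand gene Xcl1, made by cytotoxic lymphocytes, averaged 0.617 ± 0.344 CPM with DSS alone against 1.26 ± 0.519 with the bacterium. Xcl1 differed by 1.03 ± 0.45 on the log2 scale, short of the threshold (edgeR adjusted p = 0.110), and passed when DSS 3 (0.0453) or DSS+AP 2 (0.0459) was left out.

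Cd209a encodes the mouse counterpart of the lectin DC-SIGN (gene 170786; chromosome 8, 3743395 to 3748984). Its level was 3.68, 1.88, 2.97 and 4.63 CPM in DSS 1 to 4, and 0.720, 1.34, 0.558 and 1.12 CPM in DSS+AP 1 to 4. In estimated counts that is 32 to 76 per library against 9 to 23, with no overlap. The mean fell from 3.29 ± 1.16 to 0.934 ± 0.359 CPM, the largest fitted change of the 9 genes at -1.81 ± 0.36 on the log2 scale (edgeR adjusted p = 0.00782). Cd209 genes lie in a cluster on chromosome 8, and of 6 further ones 3 were high enough to test. Cd209b, a lectin gene of macrophages and lymphatic endothelium, fell from 1.47 ± 0.683 to 0.317 ± 0.0731 CPM (log2 -2.18 ± 0.44, edgeR adjusted p = 0.00807) and had 4 to 7 estimated counts per DSS+AP library. Cd209b was too low to test without DSS 1 or without DSS 4, so that 0 family genes were lower then. Cd209f at -1.09 ± 0.44 (edgeR adjusted p = 0.0883) and Cd209c at -0.64 ± 0.34 (edgeR adjusted p = 0.185) did not pass. The family count moved from 1 to 3 lower without DSS 2 and to 2 without any 1 of the DSS+AP libraries. It was 3 with no low-count filter and 0 with a minimum of 1 CPM in 4 libraries, and 2 with limma-voom.

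Fscn1, the fascin gene (gene 14086; chromosome 5, 142960355 to 142973189), was 28.3, 9.36, 21.1 and 27.6 CPM in DSS 1 to 4, and 5.34, 8.52, 5.39 and 6.69 CPM in DSS+AP 1 to 4. The groups did not overlap, but DSS 2 and DSS+AP 2 were near each other. The mean fell from 21.6 ± 8.77 to 6.49 ± 1.49 CPM, a log2 fold change of -1.73 ± 0.33 (edgeR adjusted p = 0.00704). Enteric neuron markers, of which 8 of 8 were lower, summed to 112 to 181 CPM with DSS alone against 25.4 to 57.0 with the bacterium. Their part in the fall of Fscn1 was not tested.

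Cd83 encodes the surface protein of mature dendritic cells and activated B cells (gene 12522; chromosome 13, 43785112 to 43803133). Its level was 11.4, 6.77, 9.60 and 14.7 CPM in DSS 1 to 4, and 8.76, 4.38, 7.69 and 7.0 CPM in DSS+AP 1 to 4. DSS 2 lay below 3 of the 4 DSS+AP libraries, so the groups overlapped. Means were 10.6 ± 3.31 and 6.96 ± 1.86 CPM, and the log2 fold change of -0.61 ± 0.27 (95% interval -1.22 to 0.01) did not pass (edgeR adjusted p = 0.120). Both maturation genes thus had lower means in DSS+AP, and Fscn1 passed.

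**Figure D2:**
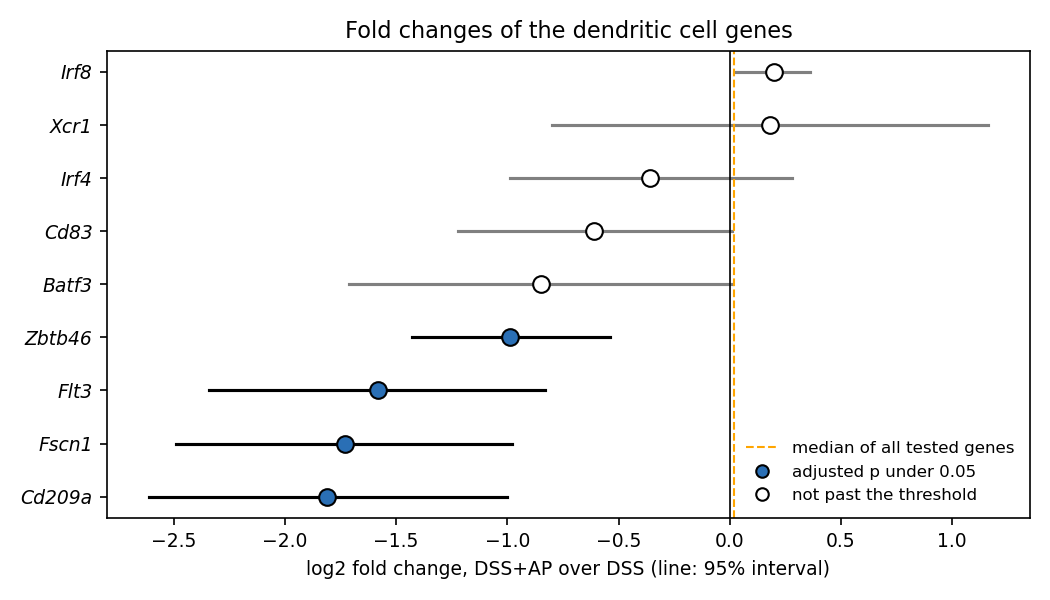
Log2 fold change of DSS+AP over DSS for each of the 9 genes with its 95% interval from edgeR, 4 mice a group. The intervals of Flt3, Zbtb46, Cd209a and Fscn1 lie wholly below 0 and belong to genes that passed, whereas that of Irf8, from 0.03 to 0.36, lies above 0 without passing after adjustment.

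The calls of the 4 lower genes were kept in each of 17 other settings that changed the scaling, the filter, the estimation, the tool, a replicate block or the libraries used. Over these settings the log2 fold change ran from -1.76 to -1.35 for Flt3, from -1.07 to -0.88 for Zbtb46, from -2.03 to -1.60 for Cd209a and from -1.93 to -1.54 for Fscn1. When the mean level of the smooth muscle markers was a covariate, the changes were -1.13, -0.51, -0.71 and -0.51 in that order, and with the B cell markers they were -0.55, -0.44, -0.79 and -0.63. None of the 4 passed in either fit (edgeR adjusted p = 0.456 to 0.634), and neither did any of the 14578 genes, of which 2044 and 1716 had an unadjusted p under 0.05. Both covariates themselves separated the groups without overlap. As mean log2 CPM, the smooth muscle markers were at least 7.68 in DSS and at most 7.56 in DSS+AP. The B cell markers were at least 0.71 in DSS and at most 0.58 in DSS+AP. These fits therefore cannot tell the covariate from the bacterium.

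The 9 genes shared their lowest DSS mouse. DSS 2 was the lowest of the 4 DSS libraries for all 9 of them, which held for 30.4% of all tested genes. The highest was DSS 4 for 5 of 9, against 25.5%, and DSS 1 or DSS 3 for 2 each. The low place of DSS 2 was not particular to these genes. By mean log2 CPM it was also lowest in DSS for macrophage (5.11), B cell (0.71), endothelial (4.04), fibroblast (7.61), smooth muscle (7.68) and enteric neuron (3.64) markers and Ptprc (5.88). It was not for neutrophil, plasma cell, T cell or epithelial markers. 8 of the 9 had a larger coefficient of variation in DSS than in DSS+AP, as did 61.0% of all tested genes, Cd209a being the exception. The mean log2 CPM over the 9 genes was 2.88, 2.08, 2.76 and 3.15 in DSS 1 to 4 and 1.95, 1.95, 1.97 and 1.96 in DSS+AP 1 to 4. The DSS+AP mice were thus nearly equal by this measure, with DSS 2 the closest to them. The summed level, most of which is Irf8, overlapped at 125 to 177 CPM in DSS and 136 to 149 in DSS+AP.

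Within a library the scaling cancels from a ratio, except through the prior count of 2. This prior weighs most at low counts. A set of 15 ratios was tested by exact two-sided permutation over 70 assignments, which cannot give a p below 0.0286. Against Ptprc, the gene of the leukocyte antigen CD45, which itself fell from 88.6 ± 26.7 to 46.9 ± 3.01 CPM (log2 -0.92 ± 0.20, edgeR adjusted p = 0.0102), Irf8 was relatively higher in DSS+AP. Its log2 ratio to Ptprc was -0.04, 0.67, 0.55 and -0.28 in DSS 1 to 4 and 1.31, 1.48, 1.27 and 1.08 in DSS+AP 1 to 4, with no overlap. The mean rose by 1.06 (exact permutation p = 0.0286, adjusted p = 0.107 over the 15 ratios). Such a gap above DSS was seen for 59.1% of all tested genes.

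The log2 ratio of Cd209a to Ptprc was -4.78, -4.88, -4.60 and -4.62 in DSS 1 to 4 and -5.78, -4.89, -6.14 and -5.36 in DSS+AP 1 to 4, and DSS+AP 2 lay only just below DSS 2. The means differed by -0.82 (exact permutation p = 0.0286, adjusted p = 0.107), in a direction without overlap that 2.55% of all genes showed. With a prior count of 5 in place of 2 the groups overlapped and the difference was -0.66, so that 3 of the 15 ratios had no overlap. Flt3 differed by -0.57 and Fscn1 by -0.75 relative to Ptprc, with overlapping groups (exact permutation p = 0.0571 for each). Zbtb46 differed by -0.07 relative to Ptprc (exact permutation p = 0.543). Xcr1 at 1.1 and Irf4 at 0.58 overlapped as well (exact permutation p = 0.0571 each), and Batf3 at 0.19 and Cd83 at 0.28 had a permutation p of 0.400 and 0.229. In all, 2 of the 9 ratios to Ptprc had groups without overlap, against 61.7% of all genes.

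**Figure D3:**
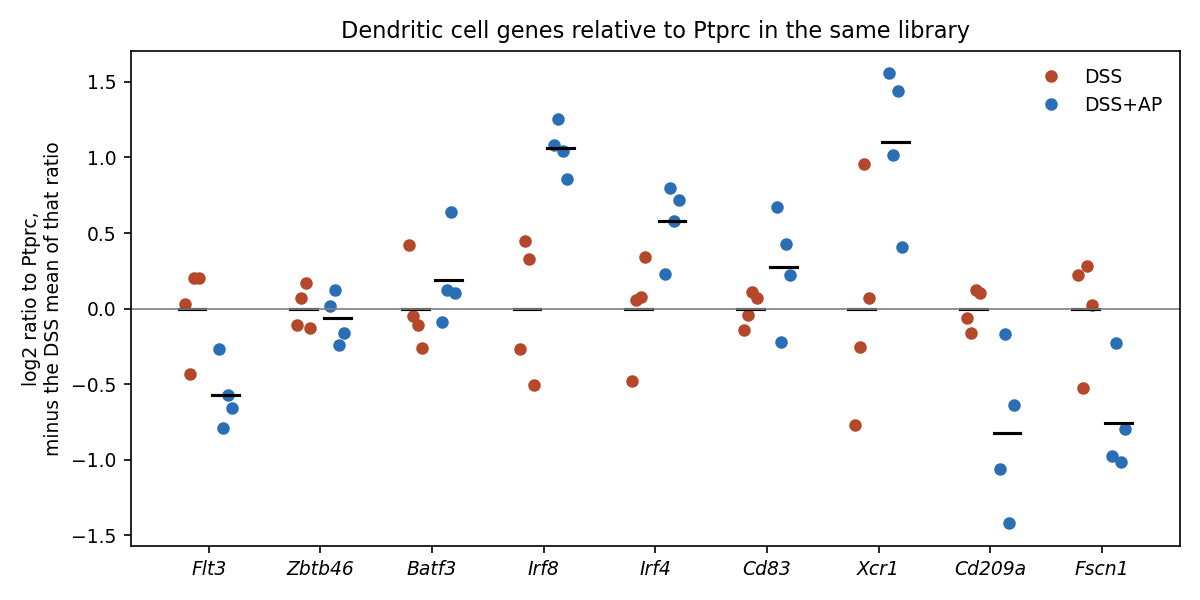
Log2 ratio of each of the 9 genes to Ptprc in every library, set to the mean of the DSS libraries, 1 point a mouse and a bar at the group mean. Irf8 lies above DSS in all 4 DSS+AP libraries and Cd209a below it, and the other 7 genes overlap between groups.

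Of 6 ratios between pairs of the dendritic cell genes, 2 had groups that did not overlap, and neither passed after adjustment. Xcr1 against Cd209a, a gene of each branch, had a log2 ratio of -2.37, -1.76, -0.84 and -1.70 in DSS 1 to 4 and 0.95, -0.47, 1.19 and -0.62 in DSS+AP 1 to 4. The groups did not overlap and the means differed by 1.93, in a pair of which Cd209a fell and Xcr1 did not pass. Relative to Cd209a, 74.8% of all genes lay above DSS without overlap. Cd83 against Flt3 was 0.49, 1.04, 0.55 and 0.52 in DSS 1 to 4 and 1.59, 1.22, 1.66 and 1.53 in DSS+AP 1 to 4, a difference of 0.85 without overlap, where 65.6% of all genes were likewise above DSS relative to Flt3. Both had an exact permutation p of 0.0286 (adjusted 0.107). Batf3 to Flt3 at 0.77, Zbtb46 to Flt3 at 0.51, Irf8 to Irf4 at 0.48 and Fscn1 to Flt3 at -0.18 overlapped (exact permutation p = 0.0857, 0.114, 0.171 and 0.571). Of the 15 ratios, 4 showed no overlap and 0 passed after adjustment. Without DSS 2 or without DSS+AP 1 the number with no overlap was 7. Groups separate more easily with a library fewer, and the share over all genes was not taken for these sets.

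Other genes linked to dendritic cells were read from 8 lists with 78 members, of which 69 were high enough to test. In the same fit 39 were lower, 1 was higher and 29 did not pass, with a median log2 fold change of -0.87, where 20.4% of all tested genes were lower and 8.84% higher. Many of these genes are also made by other cells, as named below for some of them, and Esam is on the endothelial list too. The counts are therefore not of dendritic cells alone. The higher gene was Dpp4, joined by Kit when DSS 2 was left out, by Xcl1 when DSS 3 or DSS+AP 2 was, and by Bst2 when DSS+AP 4 was.

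**Figure D4:**
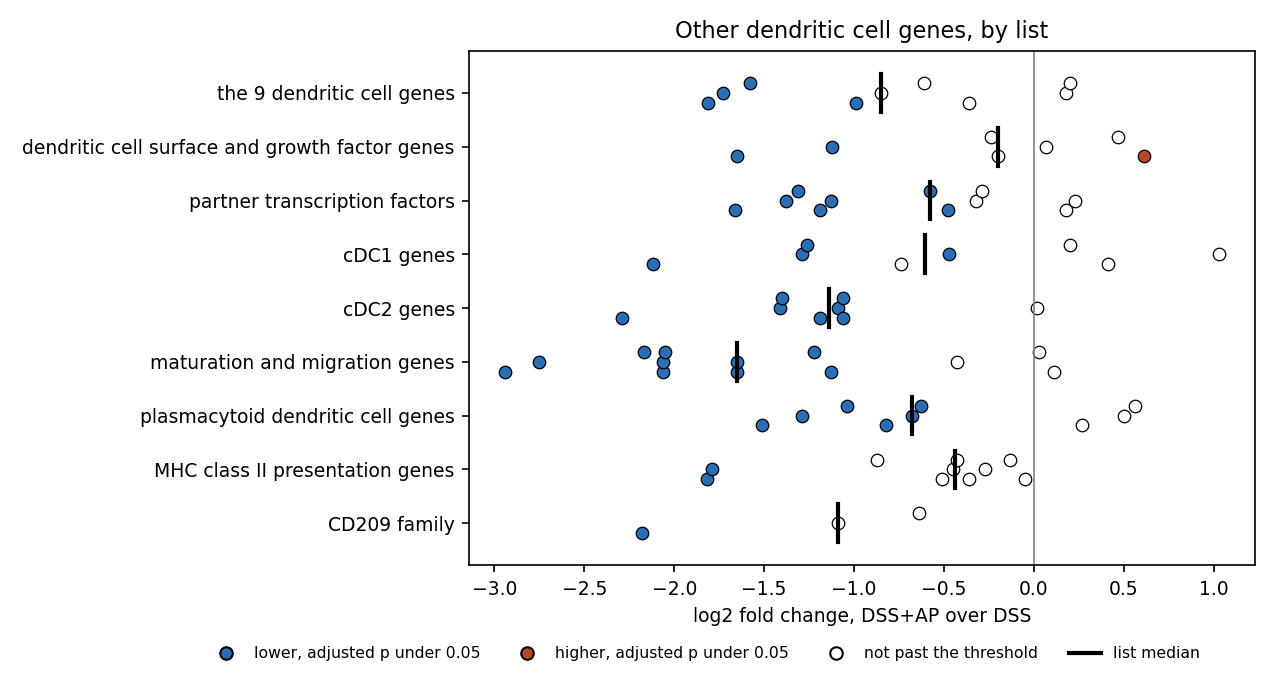
For the 9 genes and each of the 8 further dendritic cell lists, the log2 fold change of DSS+AP over DSS of every tested gene (1 point a gene, filled where it passed) and the median of the list as a bar. Maturation and migration genes have the lowest median, -1.65, and surface and growth factor genes the highest, -0.20.

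Genes of the cDC2 branch were lower in 7 of 8 tested, at a median of -1.14. In the same libraries 10 of 12 macrophage markers and 10 of 10 endothelial markers were lower, at medians of -0.93 and -1.25. Their part in the cDC2 count was not tested. Clec10a, a lectin of cDC2 and macrophages, fell from 12.5 ± 6.06 to 2.56 ± 0.314 CPM (log2 -2.29 ± 0.41, edgeR adjusted p = 0.00558). Notch2, the receptor that a subset of gut cDC2 depends on, fell by 1.09 ± 0.20, and the transcription factor gene Zeb2 by 1.06 ± 0.13. Esam, an adhesion molecule shared with endothelium, fell by 1.40 ± 0.20. Klf4, the most abundant and chiefly an epithelial factor in colon, averaged 461 ± 128 CPM against 468 ± 47.8 (edgeR adjusted p = 0.941).

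Genes of cDC1 were lower in 4 of 8 tested and higher in 0, at a median of -0.61. Cadm1, an adhesion molecule of cDC1, neurons and epithelium, fell from 18.2 ± 4.72 to 7.45 ± 0.0832 CPM, and Ifi205 fell from 16.4 ± 4.86 to 3.76 ± 1.17 CPM. Wdfy4, needed for cross-presentation and also expressed by B cells, fell by 1.26 ± 0.31 and Naaa by 0.47 ± 0.14. Wdfy4 lost its call when DSS+AP 1 or DSS+AP 3 was left out (0.0547 and 0.0545 as edgeR adjusted p), and Naaa without any library except DSS 2 (0.0543 to 0.0996), so the cDC1 count fell to 2 without DSS+AP 1 or DSS+AP 3. Clec9a, a dead-cell receptor of cDC1, was 2.04 ± 0.472 CPM in DSS and 1.22 ± 0.299 in DSS+AP. The difference for Clec9a was -0.74 ± 0.26 on the log2 scale, short of the threshold (edgeR adjusted p = 0.0621), and passed when DSS 2 was left out (0.0349). Tlr3, the most abundant, was 48.6 ± 7.08 and 55.9 ± 4.69 CPM (0.20 ± 0.11, edgeR adjusted p = 0.198), and the integrin gene Itgae, shared with intraepithelial T cells, was 7.69 ± 2.38 and 10.2 ± 2.68 CPM (0.41 ± 0.27, edgeR adjusted p = 0.273). Without DSS 3 or DSS+AP 2, Xcl1 made 1 higher gene on this list.

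Maturation and migration genes were lower in 10 of 13 tested. Ccr7, which leads mature dendritic cells to lymph nodes, went from 8.27 ± 3.84 to 1.07 ± 0.547 CPM, and 4 to 23 estimated counts per library remained in DSS+AP. The genes of its ligands fell as well. Ccl21a, made by lymphatic endothelium, was the most abundant of the list and fell from 135 ± 52.1 to 58.1 ± 9.11 CPM, with near-identical copies in the genome that make its count uncertain. Ccl19 fell from 2.07 ± 1.27 to 0.298 ± 0.270 CPM (edgeR adjusted p = 0.0142), and its 2 to 12 estimated counts in DSS+AP leave the fold imprecise. Cd80, a costimulatory ligand, fell from 3.46 ± 1.13 to 0.833 ± 0.201 CPM, and Ccl22, a chemokine of mature dendritic cells, from 5.93 ± 2.45 to 1.42 ± 0.243 CPM. Il12b went from 1.59 ± 0.637 to 0.347 ± 0.129 CPM, or 3 to 8 estimated counts in DSS+AP.

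Partner transcription factors were lower in 7 of 11, at a median of -0.58. Bcl6, a repressor of dendritic and follicular cells, fell from 30.4 ± 6.84 to 11.7 ± 0.434 CPM, and Nfil3, needed early in the cDC1 path, from 25.7 ± 7.86 to 8.13 ± 0.468 CPM. Ikzf1, the Ikaros gene of all lymphoid and myeloid cells, fell by 1.31 ± 0.30. Jun, a partner of BATF3, fell from 129 ± 12.3 to 92.5 ± 7.16 CPM, while Jund, the most abundant, was 150 ± 23.3 and 175 ± 24.8 CPM (edgeR adjusted p = 0.237). Among 7 surface and growth factor genes, 2 fell and 1 rose, beside 20.4% lower and 8.84% higher of all tested genes. Itgax, the CD11c gene, fell from 25.0 ± 4.53 to 11.5 ± 0.200 CPM, and Csf2rb, the shared receptor chain for GM-CSF, from 47.5 ± 17.2 to 15.1 ± 3.05 CPM. Dpp4, a peptidase gene of cDC1 that enterocytes express strongly, rose from 35.4 ± 5.52 to 54.1 ± 2.59 CPM (0.61 ± 0.11, edgeR adjusted p = 0.00577). Kit, more typical of mast cells and pacemaker cells, was 84.8 ± 21.4 and 117 ± 14.0 CPM and passed only without DSS 2 among the left-out libraries (edgeR adjusted p = 0.0720 with all, 0.0181 without it), which made 2 higher genes on this list.

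Plasmacytoid dendritic cell genes were lower in 6 of 9 tested, at a median of -0.68. Tcf4, the lineage factor, which stromal cells share, fell from 71.9 ± 8.86 to 46.3 ± 2.53 CPM (-0.63 ± 0.10, edgeR adjusted p = 0.00391). Runx2 fell by 0.82 ± 0.19, the DNA sensor gene Tlr9 fell by 1.51 ± 0.40 and Ly6d, which B cells also express, fell by 1.29 ± 0.34. The count was 2 when DSS 4 was left out, 1 for DSS+AP 1, and 3 for DSS+AP 3 or 4. Bst2 was higher when DSS+AP 4 was left out. Runx2 was lost without DSS+AP 1 (edgeR adjusted p = 0.0552), and Tlr9 without DSS 4, DSS+AP 1 or 3 (0.0514 to 0.0660). Ly6d was lost without any library except DSS 2, DSS 3 and DSS+AP 2 (0.0582 to 0.0687). MHC class II presentation genes were lower in 2 of 10, close to the 20.4% of all genes, at a median of -0.44. H2-Oa at -1.82 ± 0.50 and H2-DMb2 at -1.79 ± 0.57 passed (edgeR adjusted p = 0.0267 and 0.0422). The invariant chain gene Cd74, the most abundant, was 400 ± 139 CPM in DSS and 332 ± 45.4 in DSS+AP (edgeR adjusted p = 0.443). H2-Aa was 219 ± 73.7 and 161 ± 18.6 CPM (edgeR adjusted p = 0.183). Ciita, the master activator of the class, was 24.4 ± 10 and 13.4 ± 2.47 CPM (-0.87 ± 0.29, edgeR adjusted p = 0.0519). This count rested on single libraries: it was 7 when DSS 2 was left out, 1 for DSS 3 or DSS+AP 2, and 0 without any other single library. Ciita, H2-Aa and Cd74 were among the genes that passed without DSS 2 (edgeR adjusted p = 0.00645, 0.00941 and 0.0334).

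Markers of other cells moved in the same libraries, where 20.4% of all tested genes were lower and 8.84% higher. Of the macrophage markers 10 of 12 were lower and 0 higher, with sums of 671 to 1430 CPM in DSS and 507 to 696 in DSS+AP. B cell markers were lower in 11 of 12, with sums of 20.7 to 160 CPM against 9.73 to 20.9, and neutrophil markers in 8 of 8, with 56.8 to 343 and 10.9 to 47.8 CPM. Fibroblast markers (8 of 8 lower, 2400 to 5540 and 1290 to 1980 CPM) and smooth muscle markers (8 of 9 lower, 2840 to 4550 and 1420 to 2670 CPM) were lower too. The T cell sums overlapped at 35.3 to 47.1 and 32.5 to 53.0 CPM, with 1 of 10 lower and 1 higher, and those of plasma cells at 1060 to 1530 and 1040 to 1280 CPM, with 1 of 8 lower. Of the 9 epithelial markers 3 were higher and 0 lower, with sums of 10700 to 12600 and 12400 to 14400 CPM. The genes of smallest p in these lists changed, on the log2 scale, by -1.64 ± 0.29 (Mrc1) and -1.38 ± 0.29 (Cd68) for macrophages, by -2.60 ± 0.56 (Fcer2a) for B cells and by -2.03 ± 0.45 (Csf3r) and -2.65 ± 0.62 (Il1r2) for neutrophils. Il1r2 was at -1.73 when DSS 1 was left out. Those of the wall were -1.22 ± 0.16 (Pecam1) and -1.61 ± 0.22 (Cdh5) for endothelium, -1.20 ± 0.14 (Pdgfra) and -1.35 ± 0.18 (Dcn) for fibroblasts, -0.94 ± 0.16 (Myocd) and -0.54 ± 0.11 (Mylk) for smooth muscle and -1.59 ± 0.19 (Snap25) and -2.18 ± 0.29 (Tubb3) for enteric neurons. In the plasma cell list Prdm1 fell (-1.08 ± 0.13), Tnfrsf17 was at 1.1 ± 0.43 without passing (edgeR adjusted p = 0.0822), and the median was -0.27. In the T cell list Cd4 fell (-0.82 ± 0.20), Cd8a rose (1.30 ± 0.43, edgeR adjusted p = 0.0485), and the median was 0.39. The epithelial genes Krt20 (0.60 ± 0.14) and Vil1 (0.40 ± 0.10) rose, Vil1 not without DSS 4 or DSS+AP 3 (edgeR adjusted p of 0.0585 and 0.0525). No marker stood at 0 in every library. Their part in the levels of the dendritic cell genes was not tested.

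The marker counts depended on single libraries and on the filter. With no low-count filter, 3 neutrophil markers were lower, and 5 epithelial and 2 T cell markers were higher. Lower macrophage markers numbered 4 to 6 without DSS 3 or 4 or without DSS+AP 1, 3 or 4, B cell markers 4 without DSS+AP 1 or 3, and neutrophil markers 2 or 3 without DSS 1 or 4 or without DSS+AP 1, 3 or 4. Higher epithelial markers numbered 1 without DSS 4 or DSS+AP 3. The higher T cell marker, Cd8a, was lost without the same 5 libraries, and 3 (Cd8a, Cd3d and Cd3g) were higher without DSS+AP 2. The plasma cell marker Tnfrsf17 was higher without DSS 2.

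**Figure D5:**
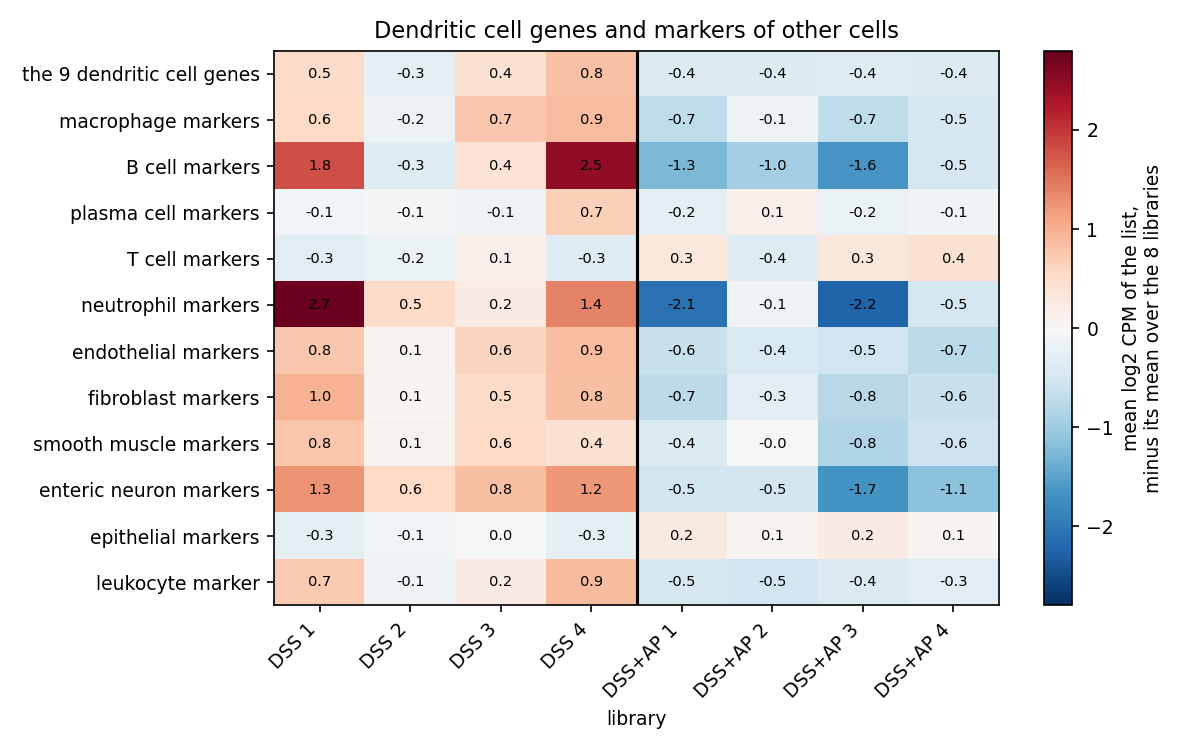
Heat map of the mean log2 CPM of the 9 dendritic cell genes (top row) and of each list of cell markers in the 8 libraries, as the difference from the mean of that row, red above it and blue below. For the dendritic cell genes the 4 DSS+AP libraries lie below every DSS library, DSS 2 lies nearest to them, and the groups also separate in the rows of B cell, neutrophil, endothelial, fibroblast, smooth muscle and enteric neuron markers and of Ptprc (lower in DSS+AP) and of epithelial markers (higher).

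Genes with the most similar profile over the 8 libraries were found by the root mean square difference of log2 CPM after each gene was set to its own mean. For Cd209a they were Ctsk at 0.126 and Nfasc at 0.141, and for Fscn1 Ms4a6d at 0.121 and Pirb at 0.126. Flt3 was closest to Pou3f3 at 0.180 and Napsa at 0.185, Zbtb46 to Cxcl16 at 0.061 and Satb1 at 0.065, and Irf8 to Copg1 at 0.036 and Pgghg at 0.041. Irf4 lay nearest to Plcg2 at 0.141 and Lax1 at 0.165, Cd83 to Gcnt1 at 0.132 and Ubtd1 at 0.137, Batf3 to Pygl at 0.157 and Ttc12 at 0.175, and Xcr1 to Upb1 at 0.235 and Kif19a at 0.253. Among the 9 genes themselves the closest pair was Cd209a with Fscn1 at 0.235, and the farthest was Xcr1 with Cd209a at 1.188. These distances are descriptions over 8 libraries, and genes of low count such as Xcr1 and Batf3 carry more counting noise.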

How the data were processed

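Colon RNA was extracted with an RNeasy kit and made into messenger RNA libraries with a SMARTer kit, per the labels' protocols. The values the authors deposited are estimated counts for each gene, without normalization. The submitters' processing notes list RSEM 1.2.8, Bowtie2 2.2.5, HISAT2 2.1.0 and GRCm38.p6, and do not say what each was used for. Whether strand entered the counting: not given in the sources used here. For all 9 genes the deposited values were whole in all 8 libraries, and their exons overlap no other gene in the GENCODE annotation of that build.

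After rounding, filterByExpr and TMM scaling, edgeR 4.0.16 (R 4.3.3) fitted all 14578 genes passing the filter with its robust quasi-likelihood F test and no covariate. Benjamini-Hochberg adjusted p-values under 0.05 were called. Each SE is the log2 fold change over the root of F, CPM is relative to TMM-scaled totals of tested genes, and log2 CPM has a prior count of 2. The biological coefficient of variation was 0.20. Ratios were tested by exact permutation with scipy 1.17.1. Each library is a separate mouse. Spearman correlations across genes were 0.971 to 0.985 within DSS, 0.977 to 0.994 within DSS+AP and 0.926 to 0.983 across groups, and no 2 libraries were copies (chi-square per gene at least 10). Gene symbols were found in the RefSeq table of GRCm38.p6 for 18750 of 18806 genes, the source of coordinates, and promoters for 8 of the 9 genes. Of these steps, the edgeR fit was tested on simulated counts with the same dispersion for every gene. It recovered 22.4% of the 1.5-fold, 78.3% of the 2-fold and 98.4% of the 4-fold changes.

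The 9 genes, the lists and the tests were chosen with earlier results of these data known. Beside the 9, the text names up to 4 genes of each dendritic cell list past the threshold by smallest p, the most abundant one, any called against the direction of most, up to 2 genes of each marker list by smallest p, and the 2 nearest profiles of each of the 9. A gene that this rule also takes is not reported here. The alternatives changed scaling, filter, estimation, tool (DESeq2 1.42.0, limma-voom of limma 3.58.1), a replicate block, 2 covariates, the prior count and the libraries used. Figures were drawn with matplotlib 3.10.9.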

Additional observations from a re-analysis of the deposited data

Results flagged for a closer look

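Of 40 groups of 4 libraries examined for a single library far from the rest (the 9 genes and the marker sums), 1 stood out. The summed fibroblast markers of DSS+AP 2 reached 1980 CPM, against 1290 to 1410 in the other 3 DSS+AP libraries, a gap of 0.83 of the group's range, just past the limit of Dixon's test for 4 values. Chance gives about 1 such case in 20 groups. None of the 9 dendritic cell genes had such a library.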

How the results depend on the processing

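The count of 4 lower dendritic cell genes was the same in each of 17 settings without a covariate, and 0 with the smooth muscle or the B cell markers as a covariate, where 0 genes of the whole table were lower and 0 higher. In these 2 covariate fits the dendritic cell lists also had 0 lower and 0 higher, and H2-Oa and H2-DMb2 turned to 0.04 and 0.27 with the B cell covariate. Both covariates separated the groups without overlap, so these fits cannot tell either of them from the bacterium. The cause was not tested. Irf8 made 1 gene higher with no low-count filter or with DESeq2. Over all genes, 767 were higher without scaling factors, 1950 with no low-count filter, 2107 with DESeq2 and 2379 with limma-voom. The lists then had 2 higher with no low-count filter, 3 with DESeq2 and 2 with limma-voom. With the replicate number as a block, 1967 genes were lower and 582 higher, and the dendritic cell genes were still 4 lower. The dendritic cell lists then had 29 lower, against 39 in the main fit. Calls lost with this block included Ccl21a, Ccl19, Wdfy4, Naaa, Runx2, Ly6d, Cd68, Il1r2, Cd8a and Vil1 (edgeR adjusted p = 0.0521 to 0.108). Same-numbered libraries of the groups did not deviate together (correlations -0.136, -0.452, 0.359 and -0.185), and the groups were treated as unpaired. These correlations cannot exclude a pairing by cage or handling. Leaving out 1 library gave 525 to 2101 higher and 1985 to 3086 lower genes, 26 to 47 lower and 1 to 2 higher list genes, 4 lower and 0 higher dendritic cell genes, and 4 to 7 ratios without overlap, and the smallest exact permutation p was then 0.0571. Depth limits Batf3 and Xcr1, with 7 to 29 estimated counts per library.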
